A study of Homo sapiens with 4 samples.

Results

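The sterol and lipid synthesis genes described here were 7 protein-coding genes of HepG2, a line derived from human hepatocellular carcinoma, in which open chromatin was profiled. They were HMGCS1, SQLE, INSIG1, SREBF1, SREBF2, FASN and SCD, out of 20020 annotated protein-coding genes. Every accessible region overlapping the gene body or the 10 kb on either side was taken, which gave 18 regions out of the 80551 obtained when overlapping peaks of all libraries were merged. Accessibility was profiled by ATAC-seq, in which a transposase inserts sequencing adapters into open chromatin, so that the number of sequenced tags rises with the openness of a site. Wild-type HepG2 cells were either left untreated (control, 2 libraries) or given tazemetostat at 5 µM for 48 h (2 libraries), and each library was made from 50000 cells. Tazemetostat inhibits EZH2, the enzyme of the polycomb complex that places the repressive methyl mark on lysine residues of histone H3. The labels do not say whether the controls received the DMSO in which the drug was dissolved, and they describe a DNase pretreatment for the drug-treated cells only. All libraries came from 1 cell line, and nothing states that they came from separate cultures, so p-values measure only the spread between these libraries, which may be technical.

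Cells adjust sterol and fatty acid synthesis through the sterol regulatory element-binding proteins, which are encoded by SREBF1 and SREBF2 and made as membrane proteins of the endoplasmic reticulum. When sterols are plentiful, the INSIG proteins hold the escort protein SCAP, and with it the precursor, in that membrane. When sterols are scarce, SCAP carries the precursor to the Golgi, proteases release its DNA-binding part, and this part switches on genes that carry a sterol regulatory element, often together with NF-Y and Sp1. In hepatocytes the SREBF2 product acts mainly on cholesterol synthesis, with HMGCS1 and SQLE among its targets, and the SREBF1c form acts mainly on fatty acid synthesis, with FASN and SCD among its targets.

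Depth was 17.2 to 26.6 M mapped tags per library and overlapped between the groups, but 4.32% and 5.69% of the control tags lay in peaks against 11.5% and 9.81% of the tazemetostat tags. Whether this difference between the libraries has a part in the values below was not tested. The value given for a peak is its normalised tag count, the tags in the peak per 10 M mapped tags. A peak list holds no value where no peak was called, and a tag count averages over many cells, so more cells with an open site and a more open site in each cell cannot be told apart. Of 8 hepatocyte markers, 5 had a peak at the transcription start in all 4 libraries (APOA1, APOB, TTR and HNF4A among them), AFP had one in 2 libraries, FOXA2 in 1 and ALB in none. Of 8 markers of blood, connective tissue, endothelial and glial cells, none did in all libraries, and 2, GFAP among them, had a peak only in the tazemetostat libraries.

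The sequences that carry the motifs of this pathway at the members are printed first. The letters searched on both strands were TCACNCCAC for the sterol regulatory element, CACGTG for the E-box, CCAAT for NF-Y, GGGCGG for Sp/KLF factors and CAAAGTNCA for HNF4, a hepatocyte regulator. Matches of the Sp/KLF letters overlapped each other in places. Capitals mark the matches, and each sequence runs 5′ to 3′ on the strand of its gene. The first 2 are the 250 bases before the SREBF2 start (chr22:41832855-41833104, + strand) and the SCD start (chr10:100346983-100347232, + strand) of RefSeq, build GRCh38.p14, and both lie within regions called in every library.
SREBF2 upstream: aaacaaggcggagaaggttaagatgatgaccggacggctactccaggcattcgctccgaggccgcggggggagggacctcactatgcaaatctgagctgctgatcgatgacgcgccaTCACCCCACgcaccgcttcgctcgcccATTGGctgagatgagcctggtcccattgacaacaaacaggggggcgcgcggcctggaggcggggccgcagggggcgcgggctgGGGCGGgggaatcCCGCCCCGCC
SCD upstream: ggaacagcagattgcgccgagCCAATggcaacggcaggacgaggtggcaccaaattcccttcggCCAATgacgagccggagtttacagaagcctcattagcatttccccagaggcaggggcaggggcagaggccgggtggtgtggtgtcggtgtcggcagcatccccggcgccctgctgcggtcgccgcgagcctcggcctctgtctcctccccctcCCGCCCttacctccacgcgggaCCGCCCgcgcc
The SREBF2 sequence holds a sterol regulatory element at position -133 from the start and an NF-Y site at position -106, and its last Sp/KLF match runs past the printed stretch. The SCD sequence holds NF-Y sites at positions -229 and -186 and no sterol regulatory element as searched. The other sequences are the central 200 bp of 4 regions, in hg38. They are the start-site region of HMGCS1 (chr5:43313525-43313724, - strand), the region called only in the controls before INSIG1 (chr7:155291080-155291279, + strand), the intronic region of SREBF1 (chr17:17830825-17831024, - strand) and a region at the end of SCD that was called only under tazemetostat (chr10:100364881-100365080, + strand).
HMGCS1 start site: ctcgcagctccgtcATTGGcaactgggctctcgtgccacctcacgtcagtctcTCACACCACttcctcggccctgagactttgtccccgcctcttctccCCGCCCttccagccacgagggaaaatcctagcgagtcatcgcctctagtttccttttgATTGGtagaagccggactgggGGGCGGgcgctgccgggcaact
INSIG1 control-only: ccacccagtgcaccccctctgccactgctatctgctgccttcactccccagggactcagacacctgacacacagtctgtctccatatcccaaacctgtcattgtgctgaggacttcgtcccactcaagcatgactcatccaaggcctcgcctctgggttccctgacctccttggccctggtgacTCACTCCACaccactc
SREBF1 intron: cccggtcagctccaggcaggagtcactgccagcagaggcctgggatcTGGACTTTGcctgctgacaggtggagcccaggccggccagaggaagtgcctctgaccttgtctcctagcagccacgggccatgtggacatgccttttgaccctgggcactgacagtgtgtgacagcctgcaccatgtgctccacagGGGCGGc
SCD end, tazemetostat-only: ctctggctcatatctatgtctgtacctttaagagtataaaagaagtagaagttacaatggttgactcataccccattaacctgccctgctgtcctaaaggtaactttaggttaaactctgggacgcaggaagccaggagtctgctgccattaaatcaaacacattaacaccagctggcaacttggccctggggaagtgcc
The sterol regulatory element was found in the centres at HMGCS1 and INSIG1, and the SREBF1 intron held an HNF4 and an Sp/KLF match. No motif of the 5 was found in the centre at the SCD end.

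Over the 18 member regions, 3 centres held the sterol regulatory element (HMGCS1, the INSIG1 control-only region and a region upstream of SREBF1), against 1.25% of the centres of all 78220 regions on the primary chromosomes. The element was in 1.12% of 34943 RefSeq promoters of 300 bases. NF-Y letters were in 5 of the 18 member centres, against 22.4% of all centres, and Sp/KLF letters were also in 5, against 17.1%. The E-box was in no member centre and in 3.68% of all centres. The HNF4 letters were in 1 member centre and in 3.30% of all centres. The median GC content of the member centres was 62%, against 52.5% over all regions. RefSeq promoters were matched for 5 of the 7 members. A match describes the letters and is not evidence of binding.

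To see which members carried an open start site, the regions overlapping 1 kb upstream to 100 bp downstream of an annotated start were taken. HMGCS1, SQLE, SREBF2 and SCD had such a region in all 4 libraries, which is 4 of 7 members (57.1%), against 32.3% of all coding genes. INSIG1 had one in a single library, and SREBF1 and FASN had none in any. Of all coding genes, 37.2% had none. The absence of a called peak does not show that the site is closed, since a peak had to stand 4-fold above the surrounding 10 kb to be kept.

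Among the 18 member regions, 9 (50.0%) were called in all 4 libraries, against 20.4% of all regions. A further 2 were tazemetostat-only, that is, they had a peak in each tazemetostat library and none in the controls (11.1%, against 13.7% of all regions), and both lay at SCD. The reverse held for 1 member region, before INSIG1 (5.56%, against 0.449%). The other 6 regions comprised 4 that were called in 1 library only and 2 that were called in 3 libraries. Per library there were 10 and 12 peaks in the member windows of the controls and 15 and 15 under tazemetostat. Over the whole genome the control lists held 26133 and 34768 peaks, and the tazemetostat lists 55313 and 54157. The map of regions by distance from the gene start shows where each lay.

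**Figure D1:**
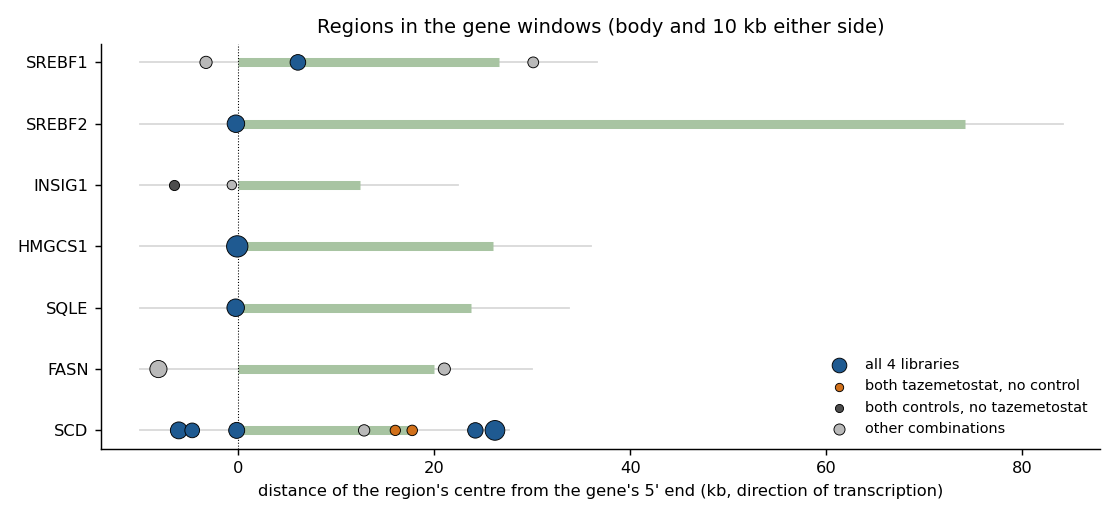
Merged regions in the windows of the 7 genes, 1 circle per region, at the distance of its centre from the 5′ end of the gene in kb along the direction of transcription. The green bar is the gene body, the thin line the window, the colour gives the libraries in which a peak was called, and larger circles stand for a higher tag count in the highest library. Of the 18 regions, 8 belonged to SCD, and FASN and SREBF1 had none at the 5′ end.

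The regulators come first. SREBF2, which encodes the factor that drives cholesterol synthesis, lies at chr22:41833105-41907306 on the + strand (ENSG00000198911.13), and its start-site region spanned chr22:41832495-41833218 with an exon of the antisense SREBF2-AS1 at its centre. Its normalised tag counts were 36.1 and 36.6 in the controls and 58.5 and 40.3 under tazemetostat, with means of 36.35 ± 0.354 and 49.4 ± 12.9 (SD, n = 2 each). Both tazemetostat values were above both controls, but the second lay close to them. In limma, fitted over all regions on log2(normalised tag count + 1), the change was 0.41 with a standard error of 0.30 and an adjusted p of 0.237, so it did not pass the threshold of 0.05. The change was 0.15 without tazemetostat replicate 1 and 0.67 without tazemetostat replicate 2.

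SREBF1 encodes the factor that drives fatty acid synthesis and lies at chr17:17810399-17837002 on the - strand (ENSG00000072310.18), with 24 annotated transcription starts. None of these starts had a region in any library, and the nearest region called in all libraries lay in an intron at chr17:17830617-17831232. This region was 5754 bp downstream of one annotated start and 6999 bp upstream of the next. Its tag counts were 28.5 and 31.5 in the controls and 44.8 and 36.5 under tazemetostat, with means of 30.0 ± 2.12 and 40.65 ± 5.87 (SD, n = 2 each). The groups did not overlap, and limma gave a log2 change of 0.42 with a standard error of 0.30 and an adjusted p of 0.215. Without tazemetostat replicate 1 the change was 0.28. Both other SREBF1 regions were called in tazemetostat replicate 1 alone. One lay inside the neighbouring RAI1, 3310 bp beyond the end of SREBF1, with a tag count of 17.1, and the other lay 3150 bp upstream of SREBF1 with a tag count of 24.2.

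INSIG1 encodes a protein that holds SCAP in the endoplasmic reticulum and is itself a target of the pathway. It lies at chr7:155297776-155310235 on the + strand (ENSG00000186480.13). The region before it at chr7:155290919-155291439, which is intergenic and 6337 bp from the gene, had tag counts of 14.0 and 11.8 in the controls and no peak under tazemetostat. These values stood on 24 and 28 tags, the control peaks shared 164 bp, and their folds over the local background were 4.96 and 4.76. So few tags give little precision, and a lack of a peak under tazemetostat does not measure a fall. The only peak near the INSIG1 start lay 461 bp before the gene, over an exon of INSIG1-DT, and was called in tazemetostat replicate 2 with a tag count of 10.9 from 29 tags. The nearest region called in all libraries was 30643 bp from the INSIG1 5′ end, and 44.4% of coding genes were farther from one.

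Among the enzymes of cholesterol synthesis, HMGCS1, the cytosolic synthase that makes HMG-CoA, had the highest tag count of the member start sites in every library. Per kb of peak, SREBF2 was above it in control replicate 1 (65.4 tags against 61.6 at HMGCS1). The gene lies at chr5:43287470-43313512 on the - strand (ENSG00000112972.15), and the region at chr5:43313173-43314075 spanned its start. Its tag counts were 44.2 and 54.6 in the controls and 91.2 and 76.4 under tazemetostat, with means of 49.4 ± 7.35 and 83.8 ± 10.5 (SD, n = 2 each). Both tazemetostat libraries were well above both controls. The log2 change was 0.75 with a standard error of 0.30 (95% interval 0.13 to 1.37), and the adjusted p in limma was 0.0475, a call that was lost with the replicate number as a block (adjusted p of 0.0752). Without control replicate 1 the change was 0.60 and the call was lost (adjusted p of 0.160 in limma). The change was 0.63 without tazemetostat replicate 1 and 0.88 without tazemetostat replicate 2. In these last fits the lone tazemetostat library is assumed to vary like the controls, and no region of the series was called, so they give the size of a change but no check of its call. Ranked within each library among the 15383 regions tested, the HMGCS1 region stood at percentiles 95.4 and 96.8 in the controls and 97.5 and 97.3 under tazemetostat. It was the only member region whose rank was higher in both tazemetostat libraries than in both controls.

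SQLE encodes squalene epoxidase, which oxidises squalene on the way to sterols, and lies at chr8:124998497-125022283 on the + strand (ENSG00000104549.12). Its start-site region also covered the start of SQLE-DT, so that tags of these 2 starts cannot be told apart. The tag counts were 37.8 and 41.2 in the controls and 58.5 and 56.1 under tazemetostat, with means of 39.5 ± 2.40 and 57.3 ± 1.70 (SD, n = 2 each). The replicates of each group lay close together, and the groups did not overlap. Even so the log2 change of 0.53, with a standard error of 0.29, had an adjusted p of 0.127 in limma, which draws its estimate of the spread partly from all regions. Counted per kb of peak, the change was 0.56 and passed, with an adjusted p of 0.0379 in limma. The percentile of the SQLE region within each library was 92.3 and 90.8 in the controls and 86.3 and 90.7 under tazemetostat.

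**Figure D2:**
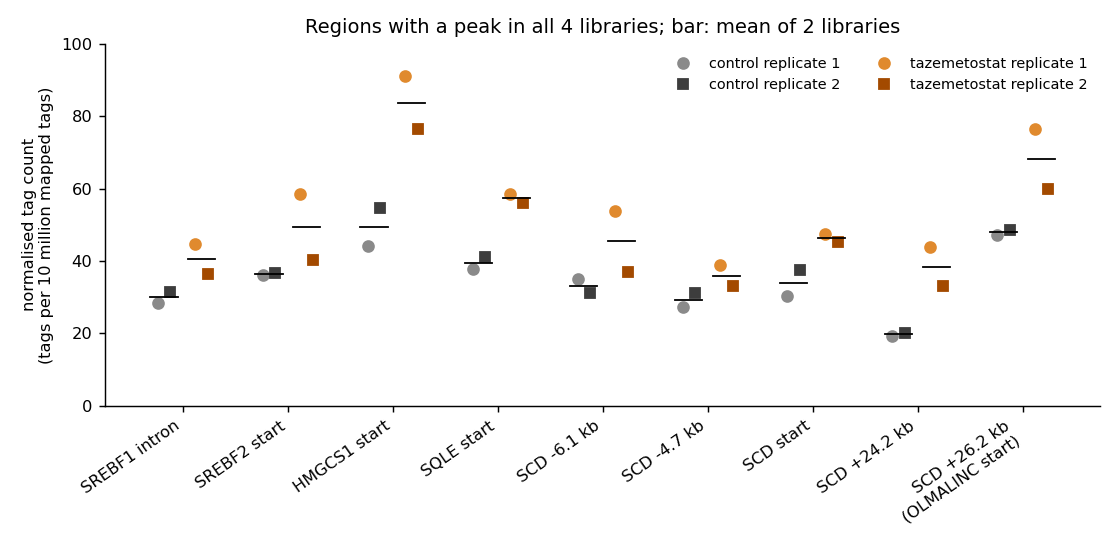
Normalised tag count (tags per 10 M mapped tags) of the 9 member regions with a peak in every library, with 1 point per library (circle, replicate 1, and square, replicate 2) and a bar at the mean of each group of 2. Both tazemetostat points lay above both control points in 9 of 9 regions, against 81.6% of all tested regions. HMGCS1 was highest under tazemetostat, at 91.2 and 76.4.

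Of the fatty acid enzymes, FASN, the synthase that builds palmitate, had no region at its start in any library. The gene lies at chr17:82078338-82098294 on the - strand (ENSG00000169710.9). Its window held 2 regions, 1 of them at the start of the neighbouring CCDC57, at chr17:82106211-82106696. That region had no peak in control replicate 1, a tag count of 41.2 in the other control library and tag counts of 55.9 and 42.2 under tazemetostat. The control value was thus nearly as high as the lower tazemetostat value. The other region lay 920 bp beyond the end of FASN and was called in tazemetostat replicate 2 only, with a tag count of 23.7 and a local fold of 4.26. The nearest region called in all libraries was 169080 bp from the FASN 5′ end, with only 15.1% of 20007 coding genes farther away and a median of 21916 bp over these genes.

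SCD encodes stearoyl-CoA desaturase, which makes oleate and palmitoleate, and lies at chr10:100347233-100364826 on the + strand (ENSG00000099194.6). Its window held 8 of the 18 member regions, 5 of which were called in every library. The start-site region at chr10:100346749-100347378 had tag counts of 30.2 and 37.4 in the controls and 47.4 and 45.2 under tazemetostat, with means of 33.8 ± 5.09 and 46.3 ± 1.56 (SD, n = 2 each). The log2 change was 0.45 with a standard error of 0.30 and an adjusted p of 0.187 in limma. Per kb of peak it was 0.54, with an adjusted p of 0.0443 in limma.

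Before the SCD start there were regions centred at -6076 and -4711 bp. Both centres lay inside another annotated gene, ENSG00000231188, and the SCD start-site region also overlapped the start window of that gene. The farther one had tag counts of 34.9 and 31.1 in the controls and 53.9 and 36.9 under tazemetostat, and the nearer one had 27.3 and 31.1 in the controls and 38.8 and 33.1 under tazemetostat. In both, tazemetostat replicate 2 lay little above the controls. The log2 changes were 0.43 and 0.29, with adjusted p-values in limma of 0.220 and 0.381, and they were 0.16 and 0.18 without tazemetostat replicate 1.

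Past the gene, the region centred 24194 bp from the SCD 5′ end, at chr10:100371164-100371691 and intergenic, had the largest change of the 9 tested member regions. Its tag counts were 19.2 and 20.2 in the controls and 43.8 and 33.1 under tazemetostat, with means of 19.7 ± 0.707 and 38.45 ± 7.57 (SD, n = 2 each). The log2 change was 0.92 with a standard error of 0.30 (95% interval 0.30 to 1.54) and an adjusted p of 0.0248 in limma, or 0.0367 with the replicate block. The change was 0.72 without tazemetostat replicate 1 and 1.11 without tazemetostat replicate 2. A region at the start of the noncoding OLMALINC, centred 26192 bp from the SCD 5′ end, had tag counts of 47.1 and 48.7 in the controls and 76.6 and 59.9 under tazemetostat. Its log2 change of 0.49 had an adjusted p of 0.154 in limma, and was 0.32 without tazemetostat replicate 1.

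Inside SCD, an intronic region centred at 12838 bp had no peak in control replicate 1, and tag counts of 16.4 in control replicate 2 and 19.7 and 14.7 under tazemetostat. The 2 tazemetostat-only regions lay toward the end of the gene. That in an SCD exon at chr10:100363067-100363443 had tag counts of 11.6 and 14.7, from 23 and 39 tags. That across the gene end, at chr10:100364726-100365234, had 15.6 and 10.5, from 31 and 28 tags. Both had low values with local folds between 4.2 and 4.87, close to the fold of 4 that a peak had to reach, and neither was tazemetostat-only when each library was reduced to its 26133 highest peaks.

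To ask whether the members changed beyond the spread between replicates, the 9 regions with 1 peak in each library were read from the limma fit over 15383 such regions. HMGCS1 and the intergenic region past SCD were called higher, so 2 of 9 member regions rose, against 42.7% of all tested regions. No member region was called lower, against 0.247%, and all 9 member changes were above 0. A fit with 1 library left out holds a lone library in 1 group, so it gives the size of a change but no check of its call. In such fits the change ran from 0.60 to 0.90 at HMGCS1 and from 0.72 to 1.11 at the region past SCD. Of the start-site regions of coding genes, 44% were called higher, and of the 4 member start sites tested it was HMGCS1 alone. The median member change was 0.45 on the log2 scale, and the median over all tested regions was 0.70, with quartiles of 0.48 and 0.92. Relative to that median, HMGCS1 stood at 0.05 and the SCD region at 0.22, and the other 7 regions lay below it. Both tazemetostat libraries were above both controls in 9 of 9 member regions, which was also the case for 81.6% of all tested regions.

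**Figure D3:**
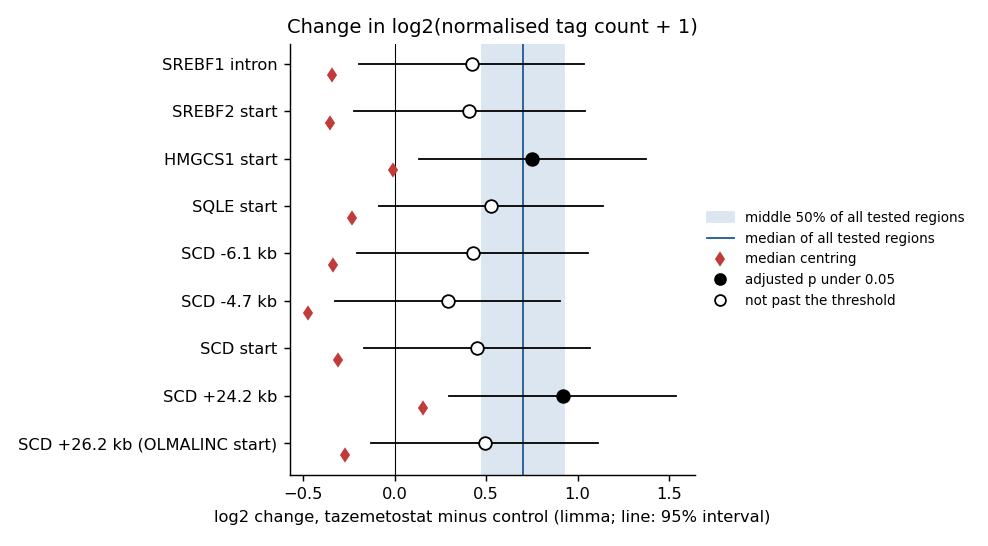
Log2 change of the normalised tag count (tazemetostat minus control, pseudocount 1) with its 95% interval from limma for the 9 tested member regions, filled where the adjusted p was under 0.05, with the change after median centring as a diamond and the median and middle 50% of all 15383 regions in blue. The changes ran from 0.29 to 0.92, and 2 of 9 lay above the median of 0.70.

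When each library was centred on its own median over the tested regions, no region of the series was called in limma in either direction. At an unadjusted p under 0.05 there were then 1656 regions in all, and none of the members. Centred in this way, the HMGCS1 change was -0.01, SQLE -0.23, SREBF1 -0.34 and SREBF2 -0.35, and the SCD region past the gene was at 0.16. The direction of the other SCD regions turned as well. Within each library, 6 of the 9 member regions held a lower percentile in both tazemetostat libraries than in both controls. In 9 of 9, the tag count of tazemetostat replicate 1 was above that of tazemetostat replicate 2. Neither the percentile count nor this one was taken over all tested regions, so they are not shown to be particular to the members.

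The length of the peaks also entered the values. HMGCS1 peaks were 717 and 864 bp long in the controls and 857 and 888 bp under tazemetostat. Those of the region past SCD were 377 and 377 bp in the controls and 486 and 465 bp under tazemetostat. The log2 change of HMGCS1 was 0.75 per peak and 0.61 per kb of peak, and that of the region past SCD was 0.92 and 0.61. In 3 of 9 member regions the longest peak was from a tazemetostat library. The tags per kb of peak were higher in both tazemetostat libraries than in both controls in 8 of 9 member regions, against 72.3% of all tested regions. On that scale 5 of 9 member regions passed the threshold as higher in limma, against 32.9% of all tested regions.

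Summed over the 7 windows, the tag counts were 319.3 and 401.8 in the controls and 657.6 and 534.2 under tazemetostat. The means were 360.55 ± 58.3 and 595.9 ± 87.3 (SD, n = 2 each), a ratio of 1.65. By a two-sided exact permutation test p was 0.33, the smallest that 2 against 2 libraries allow. The peaks behind these sums covered 5728 and 6832 bp in the controls and 8020 and 7853 bp under tazemetostat, and the density was 55.7 and 58.8 tags per kb in the controls and 82.0 and 68.0 under tazemetostat. SCD supplied the largest sum, 158.7 and 184.9 in the controls and 307.4 and 248.1 under tazemetostat. As a share of all tags in peaks of the library the direction turned, with means of 723 tags per 1 M tags in peaks for the controls and 558 for tazemetostat. The covered length and the share of tags in peaks moved with the treatment, and their part in the sums was not tested.

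To see how far the member peaks stood above their surroundings, the fold over the local 10 kb was taken for all 52 peaks in the windows. Its median was 4.92, with a range from 4.02 to 11.59, against a median of 5.85 over all 170371 peaks. Of the member peaks, 51.9% lay below 5, against 33.9% of all peaks. In the 9 tested member regions the tag counts were all higher under tazemetostat. The local fold was higher in both tazemetostat libraries than in both controls in 2, lower in 3 and overlapping in 4. This split was not counted over all tested regions, so whether it is particular to the members was not tested. At SREBF2 the fold was 9.27 and 4.79 in the controls and 11.59 and 7.59 under tazemetostat. In the SREBF1 intron it was 6.47 and 5.29 in the controls and 10.83 and 5.80 under tazemetostat. The groups overlapped at both of these. At SQLE, whose tag count was higher under tazemetostat, the fold was 6.18 and 4.56 in the controls and 4.12 and 4.47 under tazemetostat. The region past SCD, which had the largest change in tag count, had lower folds as well, 5.75 and 5.43 in the controls and 4.82 and 4.80 under tazemetostat. HMGCS1, 1 of the 2 regions with a higher fold, had 5.06 and 4.87 in the controls and 5.15 and 5.41 under tazemetostat.

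**Figure D4:**
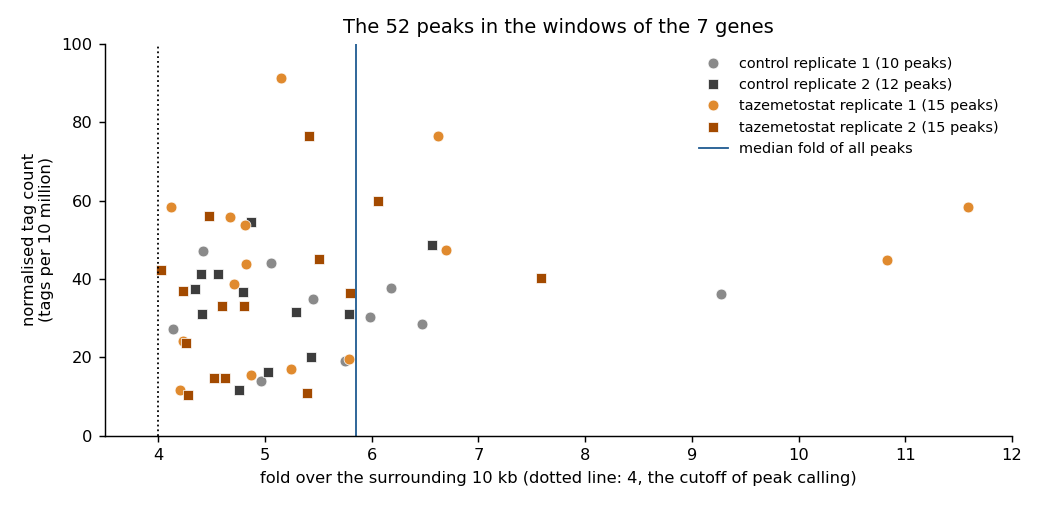
Normalised tag count (tags per 10 M mapped tags) against the fold over the surrounding 10 kb for the 52 peaks in the 7 windows, coloured by library, with the required fold of 4 as a dotted line and the median of all peaks, 5.85, as a solid line. The folds ran from 4.02 to 11.59, and 27 of the 52 peaks lay below 5.

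For the wider pathway, 42 further genes of sterol synthesis, fatty acid and triglyceride synthesis, and control and uptake were examined at their start sites. A region called in all libraries was present for 23 of 42 (54.8%), beside the 32.3% of all coding genes. By role it was present for 14 of 18 genes of sterol synthesis (77.8%), 3 of 12 of fatty acid and triglyceride synthesis (25.0%) and 6 of 12 of control and uptake (50.0%). No start-site region was found in any library for PMVK, a kinase of the mevalonate pathway, ME1, which supplies NADPH, ELOVL6, a fatty acid elongase, or MLXIPL, which encodes the carbohydrate-responsive factor ChREBP. At TM7SF2, a sterol reductase, peaks were called under tazemetostat only, with tag counts of 26.2 and 24.1. At ACSS2, which makes acetyl-CoA from acetate, they were called in the controls only, with 22.1 and 26.1. RefSeq promoters were matched for 34 of the 42 genes, and a gene was counted if any of its promoters held the letters, so the shares of genes and of promoters are not on 1 scale. NF-Y letters were found at 22 of 34 genes (34.6% of all promoters) and Sp/KLF letters at 29 of 34 (44.9% of all promoters). The E-box was found at 4 of 34 (7.23%), HNF4 letters at 1 (1.09%) and the sterol regulatory element, as searched, at none (1.12%). Only exact matches within promoters of 300 bases were counted, so this does not show that these genes lack the element.

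Of the 22 pathway start sites tested in limma, 7 were called higher (31.8%, against the 44% of start-site regions of coding genes) and none lower. Their median change was 0.71, beside 0.72 for the start-site regions of coding genes. In sterol synthesis 4 of 14 rose. NSDHL, a sterol dehydrogenase, had a log2 change of 1.05 (adjusted p of 0.0266 in limma), LSS, the lanosterol synthase, 1.02 (0.0208) and MVK, the mevalonate kinase, 0.93 (0.0219). The fourth, FDPS, named after its value was seen, had 0.85. LSS had low tag counts, 12.2 and 6.72 in the controls and 20.7 and 18.4 under tazemetostat. The lowest value of any peak in control replicate 2 was 5.04. The NSDHL tag counts were 13.4 and 32.4 in the controls and 50.4 and 39.2 under tazemetostat, and its change was 0.44 without control replicate 1 (adjusted p of 0.290 in limma) and 1.66 without control replicate 2. Per kb of peak the LSS change was 0.30 (adjusted p of 0.254 in limma), and without control replicate 2 its change per peak was 0.64 (0.0938). Among the lowest in that role were SC5D, a sterol desaturase, at 0.36 (adjusted p of 0.302 in limma) and MSMO1, a sterol oxidase, at 0.49 (0.155), neither of which passed. The MSMO1 tag counts were 49.4 and 52.1 in the controls and 78.1 and 65.5 under tazemetostat.

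In fatty acid synthesis, ACACB, an acetyl-CoA carboxylase, rose with a log2 change of 1.03 (adjusted p of 0.0212 in limma), and ACLY, which makes cytosolic acetyl-CoA, stood at 0.56 (0.111). The ACACB call was lost per kb of peak, where the change was 0.51 (adjusted p of 0.0573 in limma), and without control replicate 1, where it was 0.65 (0.131). In control and uptake 2 of 6 rose, among them INSIG2, a relative of INSIG1, with 0.77 (0.0422). The INSIG2 call was lost with the replicate block (adjusted p of 0.0701 in limma), without control replicate 1 (0.0520) and without control replicate 2 (0.0749). NPC1L1, a sterol transporter, had 0.72 and STARD4, a sterol carrier, 0.66, and neither passed. SCAP had the lowest change of the 22, 0.29 with an adjusted p of 0.484 in limma. Its tag counts were 13.4 and 17.6 in the controls and 32.8 and 10.9 under tazemetostat. The tazemetostat values thus lay on either side of the controls, and without tazemetostat replicate 1 the change was -0.46. With median centring, or with either tazemetostat library left out, limma called none of the 22 in either direction. At an unadjusted p under 0.05 there were then 0 of them with median centring, 1 without tazemetostat replicate 1 and 10 without tazemetostat replicate 2. Without control replicate 1 there were 3 calls of 22 (21.0% of all tested regions were then called higher), and without control replicate 2 there were 13 (54.6% of all).

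**Figure D5:**
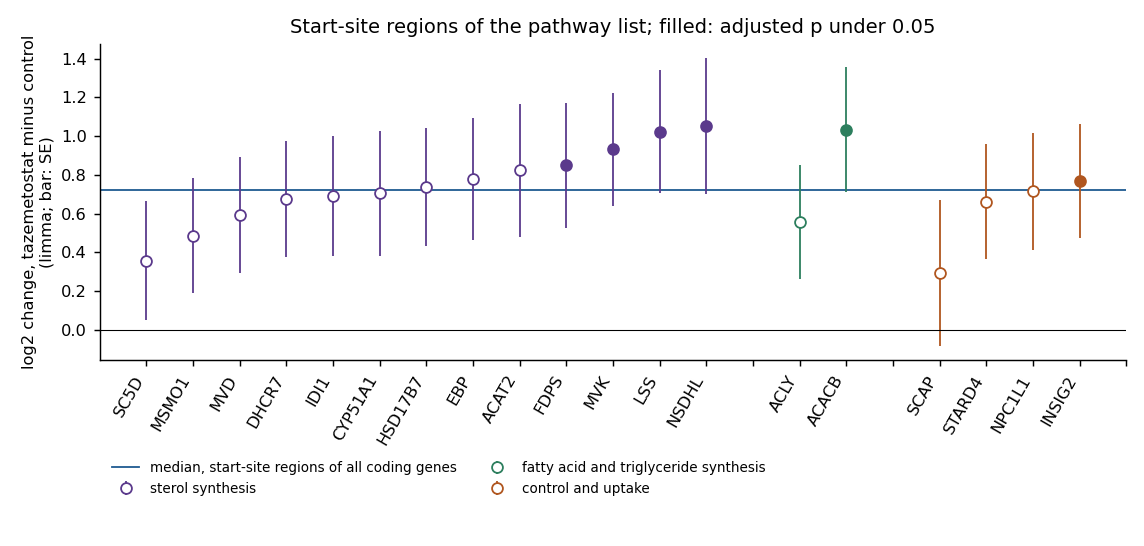
Log2 change of the normalised tag count (tazemetostat minus control, pseudocount 1) with its standard error from limma for 19 of the 22 tested pathway start sites, coloured by role and filled where the adjusted p was under 0.05. The line is the median of the start-site regions of all coding genes, 0.72, and the changes ran from 0.29 at SCAP to 1.05 at NSDHL.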

How the data were processed

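ATAC-seq libraries of HepG2 cells, 2 control and 2 tazemetostat, were grouped by sample title. Per the labels' processing notes and the methods, the authors used Trim Galore 0.6.6, Bowtie2 2.3.5.1 (hg38) and HOMER 4.11.1. Per the file headers, 300 bp peaks were called in each library without pooling, at a local fold of 4 and a false discovery rate of 0.001, whereas the methods name 0.05. Fragment length was set to 200 bp for controls and 144 bp for tazemetostat in these headers, which cannot be told apart from treatment. A tag shift for the transposase is not given in the sources used here.

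Normalised tag counts, as deposited by the authors, are a signal in tags per 10 M mapped tags. The deposited fold over the local background is a ratio. Peaks overlapping by 1 bp were merged, and regions with exactly 1 peak per library were tested in limma 3.58.1 (R 4.3.3) on log2(normalised tag count + 1), a scale on which low values change less. Adjustment was by Benjamini-Hochberg over all regions, with a threshold of 0.05. Window sums were compared with the exact permutation test (scipy 1.17.1). Annotation was GENCODE release 44. The code was tested on simulated data. Headers give 17191428 to 26564400 mapped tags per library.

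The members and lists were chosen with earlier results of these data known. Named were all members, and from the pathway list the genes with no start-site peak, those with peaks in 1 group only, those called lower, and the 3 highest and 3 lowest changes per role, except that some of these genes are not reported here singly. Alternatives were other pseudocounts, filters, scalings, merging rules, windows, a replicate block and leaving out each library.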

Additional observations from a re-analysis of the deposited data

How the results depend on the processing

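Of 9 member regions, 2 were called higher in limma (42.7% of all tested regions). The count was 5 with tags per kb of peak (32.9% of all), 1 with the replicate block (32.8%), 1 with the peaks of a region summed (40.2%), and 0 with median centring or with quantile normalisation, which was added after seeing the data. With each library left out in turn, the change ran from 0.60 to 0.90 at HMGCS1 and from 0.72 to 1.11 at the region past SCD. Such fits hold a lone library in 1 group and give no check of a call. Of 22 pathway start sites, 7 were called higher. The count was 13 with a pseudocount of 5 (48.9% of all), 0 with median centring or quantile normalisation, and 0 to 13 with a library left out. The 2 tazemetostat-only member regions of 18 became 0 of 2 with a local fold of at least 8 (13.3% of all regions). They became 0 of 17 when each library was reduced to its 26133 highest peaks (5.99% of all regions, against 13.7% in the main setting). They were 2 of 18 without control replicate 1 (17.4% of all) and 4 of 18 without control replicate 2 (26.0%). Without tazemetostat replicate 1 or 2 they were 4 of 16 (36.4% and 37.2% of all). When a library was left out, fewer libraries had to meet the rule. The 1 control-only region of 18 became 0 of 2 with a local fold of at least 8 (1.95% of all regions). With 2 kb flanks it became 0 of 10 (0.449% of all). The 9 of 18 regions called in all libraries became 0 of 2 with a local fold of at least 8 (8.90% of all regions). With 2 kb flanks they were 5 of 10, which is again 50% (20.4% of all). The replicate differences of the 2 groups did not correlate across regions (correlation -0.00246). This shows no region-by-region replicate difference shared by the groups. It cannot show a shift common to all regions, nor whether the libraries were prepared in pairs.

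With median centring the log2 change turned at HMGCS1 (-0.0072), SQLE (-0.23), SREBF1 (-0.34), SREBF2 (-0.35), SCD regions 1, 2, 3 and 8 (-0.33, -0.47, -0.31 and -0.27), ACLY (-0.20), MSMO1 (-0.27), NPC1L1 (-0.045), SC5D (-0.40), SCAP (-0.47) and STARD4 (-0.10). With quantile normalisation it turned at SQLE (-0.13), SREBF1 (-0.28), SREBF2 (-0.27), the same SCD regions (-0.26, -0.43, -0.24 and -0.13), ACLY (-0.18), MSMO1 (-0.13), SC5D (-0.38) and SCAP (-0.40). With a library left out SCAP ran from -0.46 (without tazemetostat replicate 1) to 1.05. As a share of tags in peaks, the differences in window sums turned to -164.56 over all windows, -20.6 at HMGCS1, -25.9 at SQLE, -4.64 at SREBF1, -28.0 at SREBF2 and -86.1 at SCD. The INSIG1 difference of -7.45 turned to 5.45 with 2 kb flanks. The cause was not tested. The planned count tests on whole tags were not run, because the deposited values are normalised and rounded and were not accepted as recovered reads. Multiplied by the depth, they lay near a whole number for 100% of the peaks of each library.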
